A study of Homo sapiens with 8 samples.

Results

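The EGF receptor family comprises the receptor tyrosine kinases EGFR, ERBB2, ERBB3 and ERBB4, and the growth factors that bind EGFR include AREG, EREG, HBEGF, TGFA, BTC and EGF. Members were chosen by gene symbol in the deposited expression table. All 10 genes were measured, by 11 of the 29141 features that were not controls, since AREG has 2 features. The table lists 20219 distinct symbols. The cells were MIV-Luc, the luciferase-expressing form of MCF10CA1a, a metastatic breast carcinoma line derived from MCF10A mammary epithelial cells. They carried the pLKO vector with a scrambled hairpin (shSCR) or with 1 hairpin against the decoy receptor IL13Rα2 (shIL13Rα2#2, pLKO-shIL13RA2 in the labels), and either line was mock-treated (- IL-13) or given IL-13 at 20 ng/ml over 16 h (+ IL-13). Total RNA of 2 biological replicates per group was profiled, so each of the 4 groups has 2 arrays, named A and B here by the running numbers of their columns. All groups were grown in medium that contained 20 ng/ml EGF, with horse serum, insulin, hydrocortisone and cholera enterotoxin, so EGFR ligand was supplied to every culture. With 1 hairpin and 1 line per construct, an effect of the knockdown cannot be told apart from other differences between the shSCR and shIL13Rα2 lines.

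The ligands are made as membrane-anchored precursors and are released by metalloproteases, chiefly ADAM17 for AREG, EREG, HBEGF and TGFA. Ligand binding pairs the receptors, whose kinase activity then feeds the RAS and PI3K-AKT pathways and induces immediate-early genes such as EGR1 and FOS. ERBB2 binds no known ligand and acts as a partner of the others, and ERBB3, a weak kinase, is a receptor of the neuregulins. In mammary epithelium AREG is the EGFR ligand known for ductal growth, and MCF10A-derived cells are usually grown with added EGF. Genes encoding ligands of this family are themselves induced by EGFR signaling.

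AREG and EREG are neighbours. In the RefSeq annotation the order on chromosome 4 is EPGN, EREG, AREG and BTC, with 0 protein-coding genes between each gene and the next. The 250 bases upstream of the annotated start of AREG and EREG are shown because these adjacent genes both had lower values in the shIL13Rα2 cells, and those of HBEGF because it was the member that differed most with IL-13. The sequences are RefSeq's on GRCh38.p14, 5′ to 3′ in the direction of the gene, with matches to the searched motifs in capitals.
AREG (chr4:74444886-74445135, plus strand): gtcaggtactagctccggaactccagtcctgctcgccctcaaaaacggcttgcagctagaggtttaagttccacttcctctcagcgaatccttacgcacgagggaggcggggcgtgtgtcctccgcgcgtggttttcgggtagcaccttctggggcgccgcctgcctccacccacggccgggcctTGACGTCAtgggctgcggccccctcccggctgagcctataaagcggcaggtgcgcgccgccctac
EREG (chr4:74364895-74365144, plus strand): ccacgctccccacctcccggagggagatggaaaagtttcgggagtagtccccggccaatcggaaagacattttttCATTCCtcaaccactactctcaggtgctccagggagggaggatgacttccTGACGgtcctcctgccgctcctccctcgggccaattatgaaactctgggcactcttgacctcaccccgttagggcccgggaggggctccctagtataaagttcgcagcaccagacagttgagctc
HBEGF (chr5:140346604-140346853, minus strand): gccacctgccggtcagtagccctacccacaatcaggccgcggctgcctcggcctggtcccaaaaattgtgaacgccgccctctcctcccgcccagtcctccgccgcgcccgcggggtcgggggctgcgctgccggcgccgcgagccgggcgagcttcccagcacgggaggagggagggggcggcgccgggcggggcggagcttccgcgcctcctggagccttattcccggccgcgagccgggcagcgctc
The capitals mark a full cAMP response element in AREG, and in EREG the reverse complement of the TEAD motif followed by a single TGACG. HBEGF has no match to any motif searched.

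Motifs were searched on both strands of the 250 upstream bases in 35116 RefSeq windows. These included 11 windows of members, with EGFR and TGFA represented by 2 windows each and ERBB3 by none. The cAMP response element TGACGTCA lay 65 to 58 bases before the AREG start (position -65 to -58) and was found in 1.65% of all windows. Its shorter form TGACG, which the full element contains, occurred in AREG, in EREG from position -125 to -121 and in TGFA from position -154 to -150, against 21.2% of all windows. The TEAD motif GGAATG was found in EREG from position -175 to -170, in EGFR and in EGF, and in 11.9% of all windows. The AP-1 motif TGANTCA was found in EGFR, ERBB2 and EGF, and in 6.57% of all windows. In EGF it overlaps the TEAD match. The EGFR matches all lay in the window at chr7:55109589-55109838, and its window at chr7:55018767-55019016 had none. The TGFA match lay in the window at chr2:70553827-70554076 and not in that at chr2:70553447-70553696. The STAT6 motif, TTC and GAA with 4 bases between them (5.38% of all windows), the general STAT motif TTCNNNGAA (6.57%), the CArG box (1.16%) and the EGR motif GCGTGGGCG (0.72%) were found in 0 of the 11 member windows. These are matches of letters in a short window and carry no measurement of binding.

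Array medians lay between 5.02 and 5.06 on the log2 scale, Pearson's r across features was 0.992 to 0.993 between arrays of a group and 0.988 to 0.993 between groups, and no arrays held identical values. The hairpin target IL13RA2 was at 8.09 and 8.07 in mock-treated shSCR cells and at 6.34 and 6.52 in mock-treated shIL13Rα2 cells, a log2 difference of -1.65 (limma adjusted p = 0.0105). It was at 9.33 and 9.36 in shSCR cells with IL-13 and at 8.23 and 8.15 in shIL13Rα2 cells with IL-13. The lower level in the shIL13Rα2 cells was thus present with and without the cytokine, at equal treatment. Against mock-treated shSCR cells, the IL-13-treated shIL13Rα2 cells did not have less IL13RA2 RNA. SERPINB3, a serpin induced by IL-13 in epithelial cells, was higher with IL-13 by 3.88 in shSCR cells and by 3.28 in shIL13Rα2 cells (limma adjusted p = 3.6e-05 and 1.4e-04). The epithelial marker EPCAM (10.6 to 12.1 over its 2 features) and the basal keratin KRT5 (9.46 to 9.98) were bright on all 8 arrays. So was the luminal keratin KRT8 (9.81 to 10.41). The luminal marker PGR (3.03 to 3.45) and the leukocyte marker PTPRC (2.27 to 2.71) lay below the median of the negative-control features (4.12 to 4.38). All 10 basal epithelial markers, 6 of 8 luminal markers and 7 of 10 markers of cells that the culture should not hold lay above that median on all 8 arrays. Some markers differed between the groups. TP63, a basal transcription factor, was at 4.87 and 5.06 in mock-treated shSCR cells, 6.0 and 6.11 in shSCR cells with IL-13, 6.20 and 6.11 in mock-treated shIL13Rα2 cells and 6.98 and 6.50 in shIL13Rα2 cells with IL-13, and was higher both with IL-13 (0.84, limma adjusted p = 0.0463) and with the knockdown (0.94, limma adjusted p = 0.0225). The luminal keratin KRT18 was lower with the knockdown by feature 8154725 (-0.60, limma adjusted p = 0.0454) and had -0.30 by feature 7955637 (limma adjusted p = 0.327). These were the only calls at an adjusted p under 0.05 in either averaged comparison among the basal and luminal markers, counted by the brightest feature, and there were 0 among the 10 markers of other cells. PECAM1, an endothelial marker, was at 7.71 to 8.82, with a log2 difference of -0.52 for IL-13 and 0.52 for the knockdown (limma adjusted p = 0.0938 and 0.0615). The part of these markers in the results on the family was not tested.

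Log2 RMA values depend on the probes of a feature, so they are compared between arrays and not between genes. Both AREG features and EREG exceeded the 95th percentile of the negative controls (9.41 to 9.74) on all 8 arrays, and the other members did not on any array. These controls spread widely. Against their median, 9 of the 11 features lay above it on all 8 arrays, the exceptions being ERBB4, which was below it on every array, and EGF, above it on 1 array. A low value of ERBB4 or EGF is therefore close to array background. Between the 2 arrays of a group, the SD of the member features was 0.00 to 0.31 with a median of 0.07 on the log2 scale, against a median of 0.10 for all features.

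**Figure D1:**
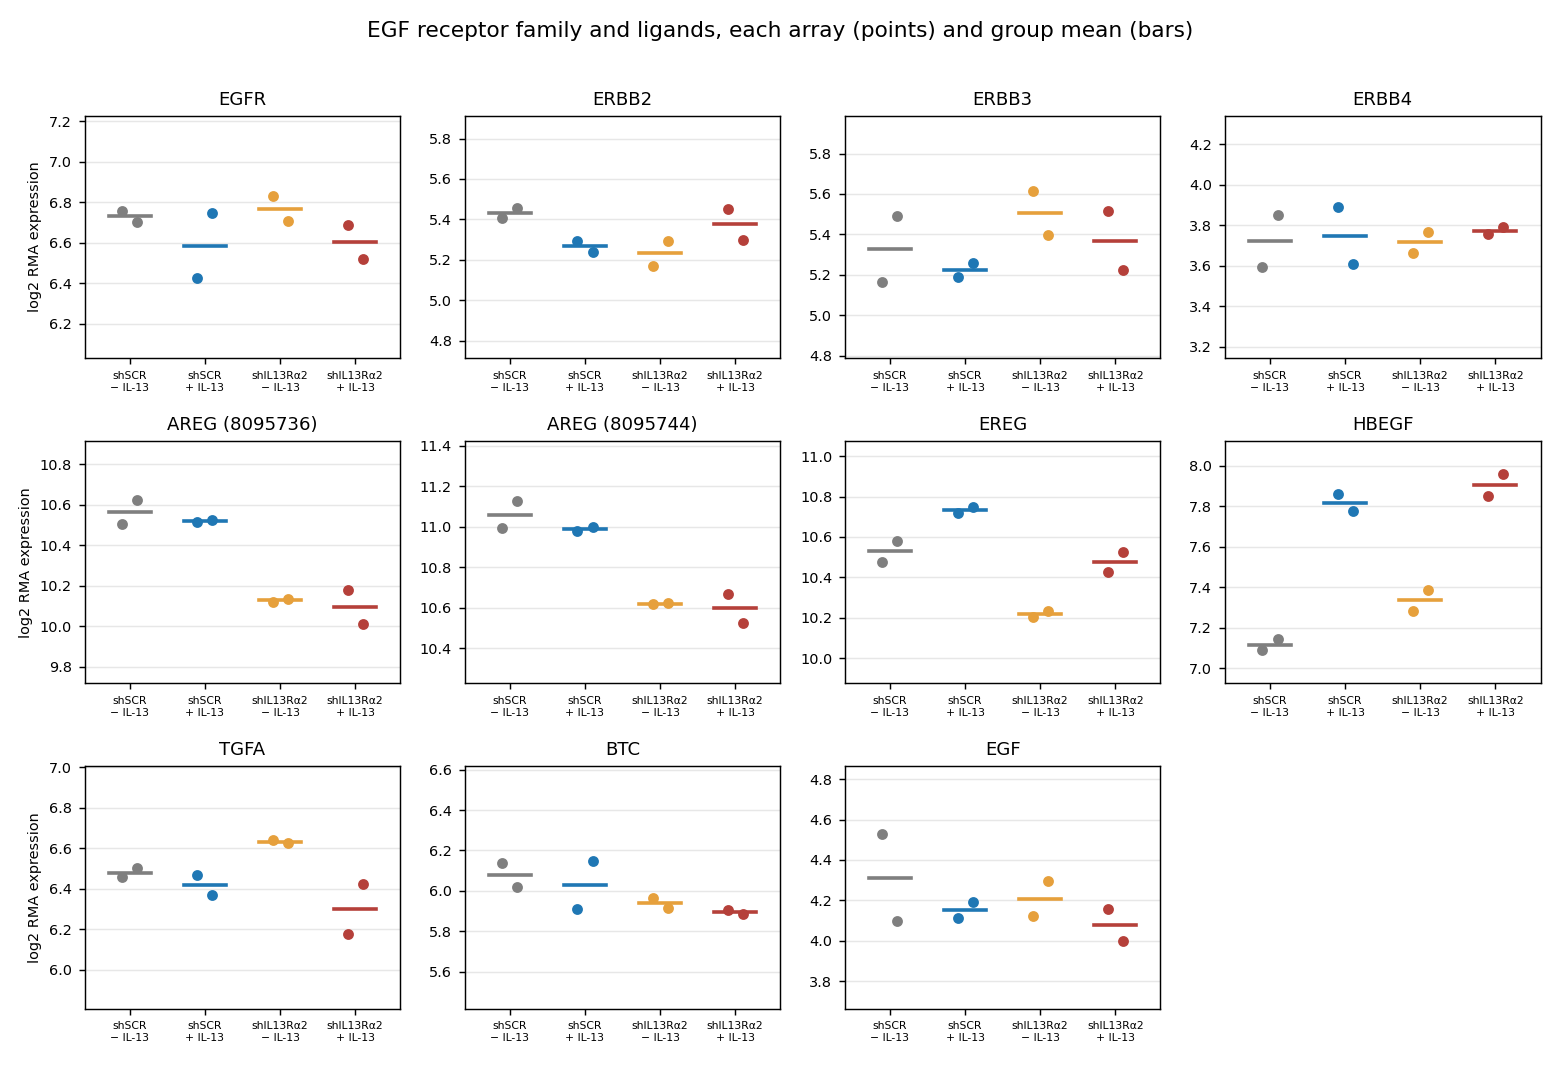
Log2 RMA expression (y axes, all of the same height in log2 units but with different starting points) of the 11 member features in the 4 groups of MIV-Luc cells (x axes), with a point for each array and a bar at the group mean (n = 2). HBEGF is higher in both IL-13-treated groups, both AREG features are lower in both shIL13Rα2 groups, and the receptors lie within a range of group means of 0.06 to 0.28.

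No receptor gene passed the test in any comparison, with or without adjustment of its p. EGFR, the receptor of all 6 ligands examined, was at 6.76 and 6.70 in mock-treated shSCR cells, 6.43 and 6.75 in shSCR cells with IL-13, 6.83 and 6.71 in mock-treated shIL13Rα2 cells and 6.69 and 6.52 in shIL13Rα2 cells with IL-13. Of the 2 arrays of shSCR cells with IL-13, array A lay below every other array. Array B lay within the range of the other groups, 6.52 to 6.83. ERBB2, the ligand-less partner receptor, was at 5.41 and 5.46, then 5.29 and 5.24, then 5.17 and 5.29, and then 5.45 and 5.30 in the same order of groups. Its group means stayed within 0.20 of each other. ERBB3, a neuregulin receptor, was at 5.16 and 5.49, 5.19 and 5.26, 5.61 and 5.40, and 5.52 and 5.22, with overlap between the shSCR and shIL13Rα2 arrays. ERBB4, the other neuregulin receptor, was between 3.59 and 3.89 on all arrays. Over the comparisons of IL-13 with mock and of shIL13Rα2 with shSCR, each averaged over the other factor, the 4 receptors differed by -0.16 to 0.16 on the log2 scale. The 95% confidence intervals of the IL-13 differences reached from -0.38 to 0.27 and those of the knockdown differences from -0.23 to 0.42. The smallest limma adjusted p among the receptors was 0.606, for ERBB2 in the knockdown without IL-13 (difference -0.20, 95% confidence interval -0.46 to 0.05). The intervals do not show that the levels were equal, and those of ERBB4, whose signal lay below the negative-control median on all 8 arrays, set no limit on a change of that gene.

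HBEGF, a heparin-binding EGFR ligand, was the member that differed most with IL-13. It was at 7.09 and 7.14 in mock-treated shSCR cells and at 7.86 and 7.78 in shSCR cells with IL-13. In the shIL13Rα2 cells it was at 7.28 and 7.39 with mock treatment and at 7.85 and 7.96 with IL-13. All 4 IL-13-treated arrays lay above all 4 mock-treated arrays. In bulk RNA, more cells expressing the gene and more RNA per cell cannot be told apart. Of all features, 4.78% had arrays that did not overlap between IL-13 and mock. Averaged over both constructs the log2 difference was 0.64 (SE 0.08, 95% confidence interval 0.46 to 0.81, limma adjusted p = 0.0242), a fold of 1.55. An adjusted p under 0.05 was reached by 0.233% of all features in that comparison. The difference was 0.70 in shSCR cells (limma adjusted p = 0.138) and 0.57 in shIL13Rα2 cells (limma adjusted p = 0.252), and their interaction was -0.13 (95% confidence interval -0.48 to 0.22). In shIL13Rα2 cells with IL-13 the level exceeded that of untreated shSCR cells, with a log2 difference of 0.79 (95% confidence interval 0.54 to 1.04, limma adjusted p = 0.0357), in a comparison where 0.285% of all features had an adjusted p under 0.05. Neither difference reached the 2-fold limit of the study's methods. With any 1 of the 8 arrays left out, the averaged difference was 0.61 to 0.66. That between IL-13-treated shIL13Rα2 and untreated shSCR cells was 0.74 to 0.85. Neither then kept an adjusted p under 0.05, but such a fit leaves 1 group with 1 array.

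AREG, or amphiregulin, had lower values on every shIL13Rα2 array, a difference that missed the adjusted threshold, and nearly the same values with and without IL-13. By feature 8095736 it was at 10.50 and 10.62 in mock-treated shSCR cells, 10.51 and 10.52 in shSCR cells with IL-13, 10.12 and 10.14 in mock-treated shIL13Rα2 cells and 10.18 and 10.01 in shIL13Rα2 cells with IL-13. All 4 shIL13Rα2 arrays lay below all 4 shSCR arrays, as 7.13% of all features did not overlap between the constructs in one direction or the other. Feature 8095744 gave 10.99 and 11.13, 10.98 and 11.00, 10.62 and 10.62, and 10.67 and 10.52 in the same order. It was above the former by 0.47 to 0.51 on every array. Both features are annotated to the same transcript, so they are not independent measurements. Averaged over both treatments, the log2 difference was -0.43 (SE 0.08, 95% confidence interval -0.61 to -0.25, limma adjusted p = 0.0845) by feature 8095736 and -0.42 (SE 0.08, limma adjusted p = 0.0910) by feature 8095744. These miss the threshold of 0.05, which 0.446% of all features passed. The difference by feature 8095736 was -0.44 among mock-treated and -0.43 among IL-13-treated cells, comparisons that share no arrays, with limma adjusted p-values of 0.320 and 0.426. IL-13 averaged over the constructs gave -0.04 (95% confidence interval -0.22 to 0.14). The AREG call depended on the variance model and the features tested, and was absent from the main fit. Limma with an intensity trend and robust prior gave adjusted p-values of 9.5e-04 and 8.1e-04 for the features. Limma without the dimmest 30% of features gave 0.0394 and 0.0434. With any 1 array left out, the averaged knockdown difference was -0.47 to -0.39 by feature 8095736 and -0.45 to -0.38 by feature 8095744.

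EREG, or epiregulin, the gene next to AREG, had values that were higher with IL-13 and lower in the shIL13Rα2 cells, and neither difference passed after adjustment. It was at 10.48 and 10.58 in mock-treated shSCR cells and 10.72 and 10.75 in shSCR cells with IL-13. In the shIL13Rα2 cells it was at 10.21 and 10.23 with mock treatment and at 10.43 and 10.53 with IL-13. Within either construct both IL-13 arrays lay above both mock arrays, and within either treatment both shIL13Rα2 arrays lay below both shSCR arrays. Such an absence of overlap between 2 arrays and 2 was common, at 36.7% of all features for IL-13 in shSCR cells, 37.4% for IL-13 in shIL13Rα2 cells, 41.2% for the knockdown without IL-13 and 36.4% for the knockdown among IL-13-treated cells. The log2 difference for IL-13 was 0.23 (95% confidence interval 0.06 to 0.40, limma adjusted p = 0.425), and that for the knockdown was -0.28 (95% confidence interval -0.45 to -0.11, limma adjusted p = 0.220). The shIL13Rα2 cells with IL-13 and the mock-treated shSCR cells were therefore close, with a difference of -0.05 (95% confidence interval -0.29 to 0.19). Neither averaged difference passed the adjusted threshold in limma, although both did with the intensity trend and robust prior (limma adjusted p = 0.0360 for IL-13 and 0.00716 for the knockdown).

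TGFA, an EGFR ligand made by many carcinoma cells, was at 6.46 and 6.50 in mock-treated shSCR cells, 6.47 and 6.37 in shSCR cells with IL-13, 6.64 and 6.63 in mock-treated shIL13Rα2 cells and 6.17 and 6.42 in shIL13Rα2 cells with IL-13. The highest values were those of mock-treated shIL13Rα2 cells and the lowest was an array of the same cells with IL-13. The IL-13 difference was -0.33 in shIL13Rα2 cells (95% confidence interval -0.61 to -0.06, limma adjusted p = 0.642) and -0.06 in shSCR cells (95% confidence interval -0.34 to 0.21), and the interaction of -0.27 was not significant (95% confidence interval -0.66 to 0.12, limma adjusted p = 0.989). BTC, or betacellulin, which binds EGFR and ERBB4, was between 5.89 and 6.15 on all arrays. Its averaged differences were -0.05 for IL-13 and -0.13 for the knockdown, and both confidence intervals included 0. EGF itself was between 4.0 and 4.53. The highest value was array A of the shSCR cells without IL-13, whose array B read 4.10, and the other groups lay between 4.0 and 4.29. Its averaged differences were -0.15 for IL-13 and -0.09 for the knockdown, within the spread between arrays.

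**Figure D2:**
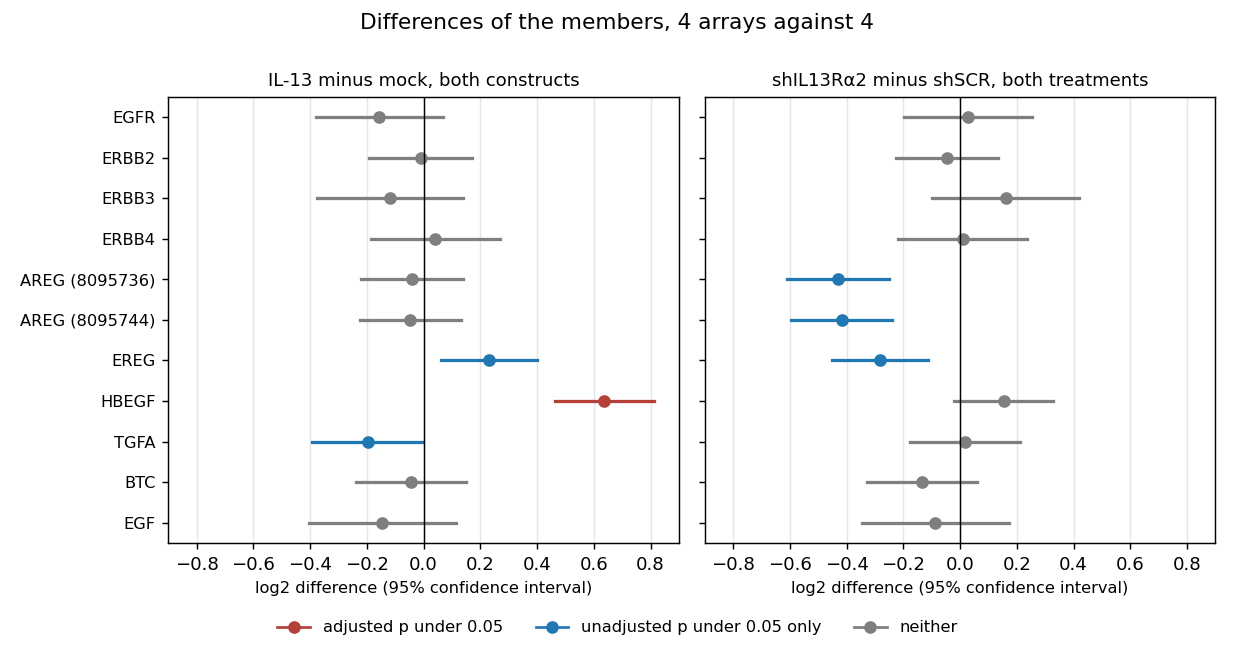
Log2 difference (x axes) with its 95% confidence interval (bars) for each of the 11 member features (y axis), for IL-13 against mock over both constructs (left) and shIL13Rα2 against shSCR over both treatments (right), 4 arrays against 4 in each. HBEGF at 0.64 is the point with a limma adjusted p under 0.05, and AREG, EREG and TGFA hold the points with only an unadjusted p under 0.05.

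By the call rule of the study's methods, an adjusted p under 0.05 with a fold change above 2, 0 of the 10 genes were called in any comparison. The rule was rarely met by any feature. The share of all features called was 0.0583% for IL-13 in shSCR cells, 0.0652% for the knockdown without IL-13, 0.154% for IL-13-treated shIL13Rα2 against mock-treated shSCR cells, 0.0618% for IL-13 in shIL13Rα2 cells and 0.0515% for the knockdown among IL-13-treated cells. It was 0.0927% for IL-13 averaged over both constructs and 0.0755% for the knockdown averaged over both treatments. Several of these comparisons share arrays, so their counts are not independent.

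At an unadjusted limma p under 0.05, every member that differed in any comparison was a ligand. For IL-13 in shSCR cells it was 1 gene, HBEGF, where 6.79% of all features passed. For IL-13 in shIL13Rα2 cells there were 3, EREG, HBEGF and TGFA, against 6.93% of all features. For the knockdown without IL-13 there were 2, AREG and EREG, against 9.51%, and the same 2 for the knockdown among IL-13-treated cells, against 7.07%. For IL-13-treated shIL13Rα2 against mock-treated shSCR cells there were 2, AREG and HBEGF, against 9.56%. Averaged over the other factor, IL-13 gave 3 (EREG, HBEGF and TGFA) against 8.73% of all features and the knockdown 2 (AREG and EREG) against 11.3%. With 10 member genes, each count lies within a few genes of what the shares of all features would give. The counts of 3 hold the same genes and come from comparisons that share arrays. None of the counts is a result about the family.

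The interaction tests whether IL-13 acted differently in the shIL13Rα2 cells. Among the members it ranged from -0.27 for TGFA to 0.31 for ERBB2, and 0 of 10 genes had a limma adjusted p under 0.05 (smallest 0.989) or an unadjusted p under 0.05 (smallest 0.0831). Over all features, 0% passed at an adjusted p under 0.05 (smallest limma adjusted p 0.624), and 4.47% at an unadjusted p under 0.05. A difference in the response of the family to IL-13 between the constructs was not detectable with 2 arrays per group.

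Of 5 further ligands of the family, 0 passed an adjusted p under 0.05 and all 5 had a knockdown difference above 0 (median 0.17, against -0.01 for all features, of which 51.8% were below 0). NRG4, a neuregulin that binds ERBB4, was at 6.28 and 6.22 in mock-treated shSCR cells, 5.83 and 6.07 in shSCR cells with IL-13, 6.79 and 6.72 in mock-treated shIL13Rα2 cells and 6.40 and 6.42 in shIL13Rα2 cells with IL-13. All 4 shIL13Rα2 arrays lay above all 4 shSCR arrays, an absence of overlap that 7.13% of all features showed in either direction. Its difference was 0.48 for the knockdown (limma adjusted p = 0.0709) and -0.32 for IL-13 (limma adjusted p = 0.302), opposite in sign to those of EREG. EPGN, or epigen, an EGFR ligand and the neighbour of EREG, was at 7.24 and 7.33, 7.41 and 7.32, 7.36 and 7.36, and 7.64 and 7.63 in the same order of groups. Only the shIL13Rα2 cells with IL-13 stood apart from the other arrays, and the averaged differences were 0.18 for IL-13 and 0.17 for the knockdown (limma adjusted p = 0.537 and 0.427). The 4 adjacent genes EPGN, EREG, AREG and BTC thus had knockdown differences of 0.17, -0.28, -0.43 (feature 8095736) and -0.13.

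Of 8 genes for release and maturation of the ligands, 1 passed an adjusted p under 0.05 for the knockdown and 0 for IL-13, against 0.446% and 0.233% of all features. ADAM17, the main sheddase of AREG, EREG, HBEGF and TGFA, was at 8.51 and 8.50 in mock-treated shSCR cells, 8.65 and 8.64 in shSCR cells with IL-13, 8.09 and 7.85 in mock-treated shIL13Rα2 cells and 8.16 and 8.13 in shIL13Rα2 cells with IL-13. All 4 shIL13Rα2 arrays lay below the shSCR arrays, an absence of overlap that 7.13% of all features showed in either direction. The difference was -0.52 (SE 0.08, limma adjusted p = 0.0487), and it was -0.54 among mock-treated and -0.50 among IL-13-treated cells. The call was close to the threshold and was lost without any 1 of the 8 arrays, but such a fit leaves 1 group with 1 array. The difference then was -0.58 to -0.46. Of the list, 7 of 8 were lower in the shIL13Rα2 cells, against 51.8% of all features, with a median of -0.06 against -0.01 for all features.

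**Figure D3:**
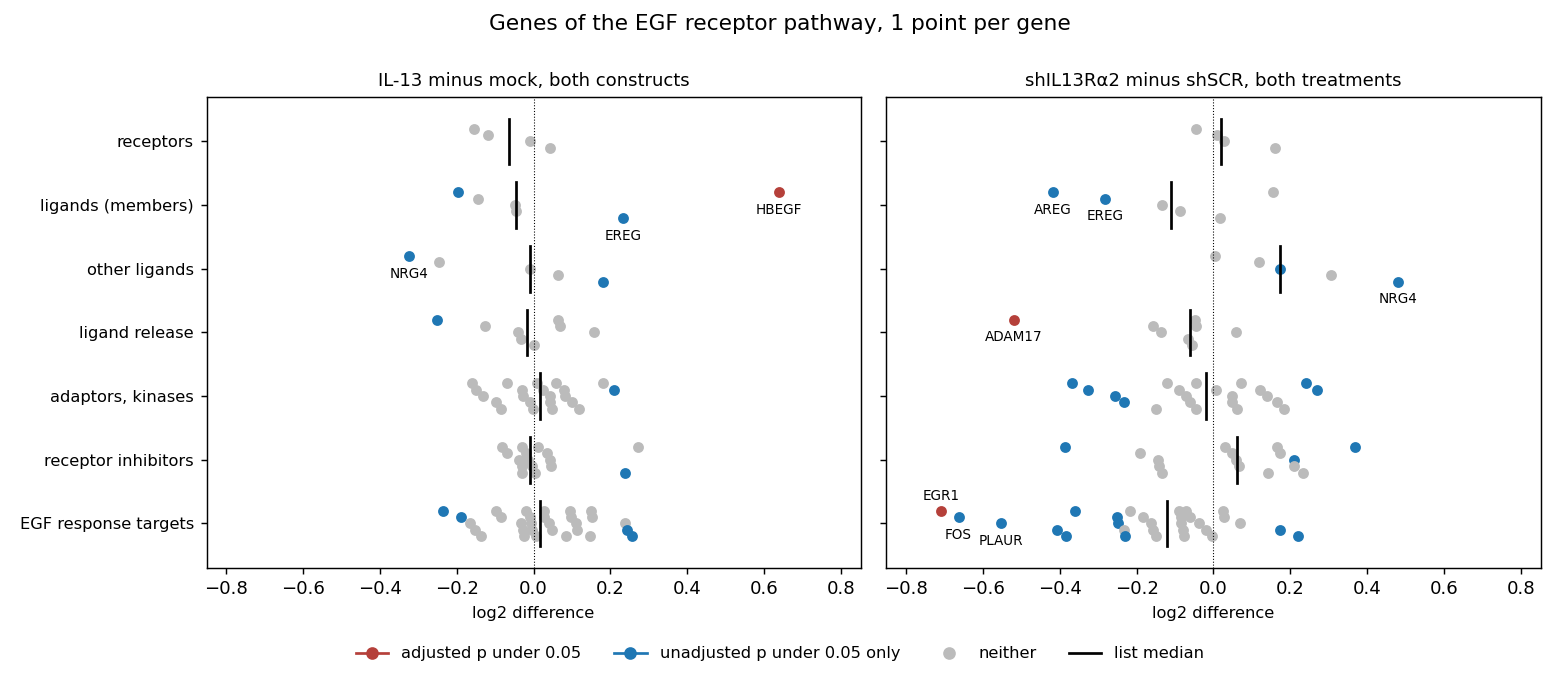
Log2 difference (x axes) of each gene in 7 lists of the EGF receptor pathway (y axis), for IL-13 against mock over both constructs (left) and shIL13Rα2 against shSCR over both treatments (right), 1 point per gene by its brightest feature and a vertical bar at the list median. The named points include HBEGF at 0.64 on the left and EGR1 at -0.71 and ADAM17 at -0.52 on the right, the points with a limma adjusted p under 0.05.

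Among 22 adaptors and kinases downstream of the receptors, 0 passed an adjusted p under 0.05 for IL-13 or the knockdown, and the knockdown differences were evenly split, 11 higher and 11 lower (median -0.02). Among those with the smallest p were MAP2K1, which encodes the kinase MEK1 (difference -0.33, limma adjusted p = 0.198), and SOS1, the exchange factor that loads RAS (0.27, limma adjusted p = 0.254). Of 16 receptor inhibitors, 11 were higher and 5 lower in the shIL13Rα2 cells (median 0.06) and 0 passed. CBL, the ubiquitin ligase that directs EGFR to degradation, was at 7.67 and 7.65 in mock-treated shSCR cells, 7.67 and 7.67 in shSCR cells with IL-13, 7.27 and 7.21 in mock-treated shIL13Rα2 cells and 7.25 and 7.39 in shIL13Rα2 cells with IL-13. Its difference was -0.39 (limma adjusted p = 0.0993). The receptor phosphatase PTPRJ had a difference of 0.37 (limma adjusted p = 0.210). The CBL-binding adaptor SH3KBP1 had features that disagreed, 8171684 at -0.36 and 8165674 at 0.14 (limma adjusted p = 0.110 and 0.541).

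Of 30 genes known to respond to EGF receptor signaling, 25 were lower in the shIL13Rα2 cells and 5 higher, with a median of -0.12. Of all features, 51.8% were lower, with a median of -0.01. At an adjusted p under 0.05 there was 1 gene, EGR1, where 0.446% of all features passed. At an unadjusted p under 0.05 there were 9 lower and 2 higher, where 6.03% of all features passed as lower and 5.31% as higher. In the mock-treated cells alone 22 of the 30 were lower (52.9% of all features) and in the IL-13-treated cells alone 25 (49.6% of all features), on arrays that the comparisons do not share but from the same pair of lines. For IL-13, 16 were higher and 14 lower, with a median of 0.02 and 0 genes past an adjusted p under 0.05, against 0.233% of all features. The list was chosen with earlier results of these data known. Its genes need not vary independently, so the counts are a description and not a test.

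EGR1, an immediate-early transcription factor induced by growth factors, was at 7.87 and 7.91 in mock-treated shSCR cells, 7.98 and 7.95 in shSCR cells with IL-13, 7.23 and 7.0 in mock-treated shIL13Rα2 cells and 7.28 and 7.37 in shIL13Rα2 cells with IL-13. All 4 shIL13Rα2 arrays lay below all 4 shSCR arrays, an absence of overlap that 7.13% of all features showed in either direction. The knockdown difference was -0.71 (SE 0.08, limma adjusted p = 0.0180), -0.77 among mock-treated and -0.64 among IL-13-treated cells. The call was lost without any 1 of the 8 arrays, but such a fit leaves 1 group with 1 array. The difference then was -0.77 to -0.65. FOS, another immediate-early gene, chosen for mention after its values were seen, was at 6.79 and 7.11, 6.55 and 6.59, 6.25 and 5.90, and 6.12 and 6.13 in the same order of groups, with a knockdown difference of -0.66 (limma adjusted p = 0.0578). FOSL1 and PLAUR, also chosen after their values were seen, had differences of -0.41 and -0.55 (limma adjusted p = 0.130 and 0.153). All of these lie on the lower side of the list. On the other side were 5 genes, the highest KLF10 at 0.22. Others of the list hardly moved, with group means of 4.57 to 4.65 for EGR2, 4.67 to 4.79 for EGR3 and 5.62 to 5.73 for JUN. These too were picked after their values were seen. The list holds targets of other pathways as well, and whether receptor activity differed between the lines was not measured.

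**Figure D4:**
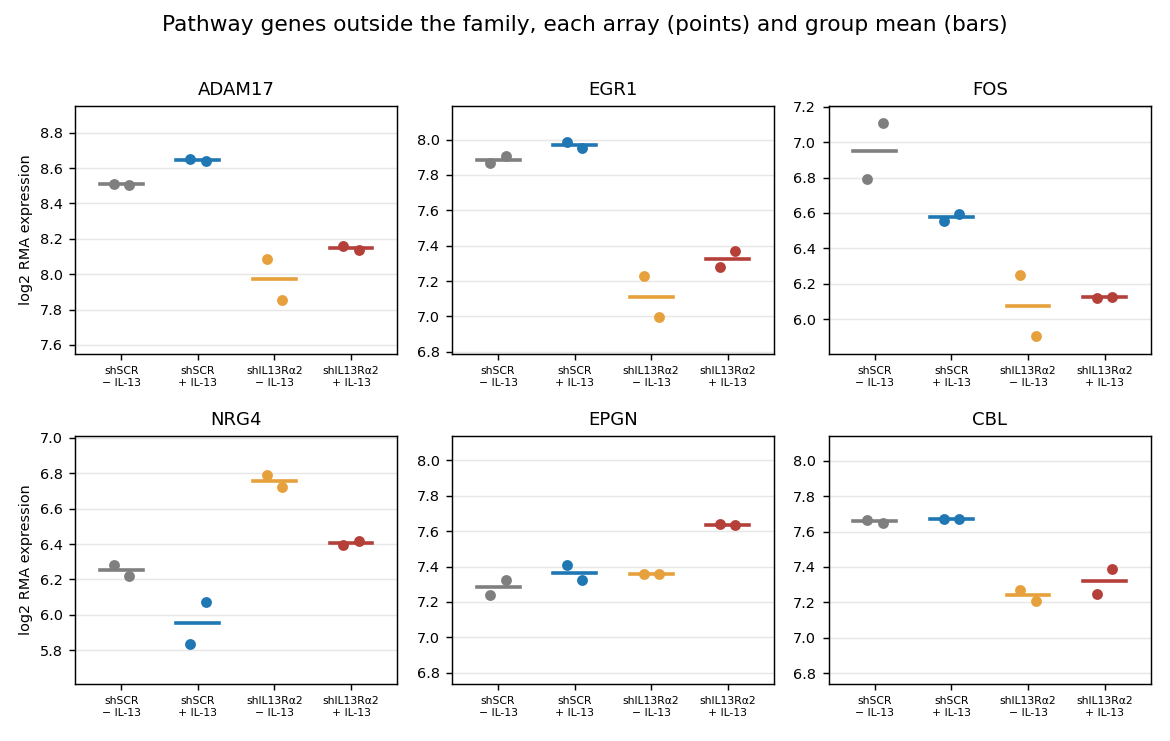
Log2 RMA expression (y axes, same height in log2 units) of 6 pathway genes outside the family in the 4 groups of MIV-Luc cells (x axes), with a point for each array and a bar at the group mean (n = 2). ADAM17, EGR1, FOS and CBL lie lower and NRG4 higher in both shIL13Rα2 groups, and EPGN stands apart in shIL13Rα2 cells with IL-13.

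The members with the largest ranges of group means were HBEGF (0.79) and EREG (0.51). The features most like HBEGF over the 8 arrays, after each feature's own mean was subtracted, were those of PXK, PARP14 and LY75, with root mean square differences of 0.069, 0.074 and 0.089 on the log2 scale. Those most like EREG were ZNF551, LYPLA2 and INSIG1, at 0.047, 0.053 and 0.058. The measure was computed over all features on arrays of the same 4 groups, and it describes the arrays without a test.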

How the data were processed

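The authors hybridized RNA of 8 MIV-Luc cell samples to Affymetrix arrays and deposited log2 values per gene-level feature, made with RMA (background correction, quantile normalization across arrays, probe summary) in Affymetrix Expression Console version 1, a tool named in the submitters' processing notes. Methods and labels name the Human Exon 1.0 ST array. The number and identifiers of the deposited features look like those of a gene-level array, so the array type was left unsettled here. No further normalization was applied. Columns were placed in groups by construct and treatment. Of 33297 features, 4156 were controls or spikes and were not used. The other 29141 entered every test, with no filter on signal.

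Linear models with a mean per group were fitted in limma (version 3.58.1, R version 4.3.3) over all 8 arrays (4 residual and 3.86 prior degrees of freedom), with Benjamini-Hochberg adjustment over 29141 features in each of 8 comparisons. A gene was called at adjusted p under 0.05 with a fold change above 2, the limits in the study's methods. The interaction used adjusted p alone. The fit was tested on simulated data for IL-13 averaged over both constructs. Noise was normal with limma's estimates of the spread, and 200 features were changed by the same size. At adjusted p under 0.05 it recovered 19.5% of log2 changes of 0.5 and 97% of those of 0.8. In the data 68 features passed in that comparison, so these shares hold for the simulated setting and need not hold for the data. A gene with several features was counted in its list by the brightest. Outside the family, genes named are those with adjusted p under 0.05, otherwise up to 3 of a list with the smallest p. Exceptions are stated, and 1 gene that this rule would name is not reported here. Members, lists and tests were chosen with earlier results of these data known.

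Alternatives were the methods' one-way analysis of variance on 4 arrays (the methods' test), limma on those 4, other fold limits, no adjustment, leaving out the dimmest 30% of features, shifting arrays to one median, quantile normalization again, an intensity trend with robust prior, 1 feature per gene, other negative-control thresholds, and leaving out each array. The study's methods give no groups for their analysis of variance, so the methods' test was run here on the groups of each comparison. Promoter sequences are RefSeq's (GRCh38.p14). Precision is limited by 2 arrays per group.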

Additional observations from a re-analysis of the deposited data

How the results depend on the processing

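No paired analysis was possible because the array columns carry no replicate numbers that match the sample labels. The count of family genes called was 0 in all 8 comparisons and stayed 0 under every alternative run except a looser fold limit: with a fold change above 1.5, or no fold limit, HBEGF alone was called (1 gene) for IL-13 averaged over both constructs and 1 gene, again HBEGF, for IL-13-treated shIL13Rα2 against mock-treated shSCR cells (the combined difference). Leaving out each array in turn left the count at 0 in each comparison. The HBEGF difference for IL-13 averaged was 0.61 to 0.66 with each array left out, and the combined difference was 0.74 to 0.85. Neither then kept an adjusted p under 0.05, but such a fit leaves 1 group with 1 array. The combined adjusted p was 0.215 with limma on the 4 arrays and 0.544 with the methods' test after adjustment. ADAM17 had an adjusted p of 0.0595 from limma after the arrays were shifted to one median. An intensity trend with robust prior took 20 differences of single genes past an adjusted p of 0.05 that lay above it without the trend and left 28 on the same side, with the differences themselves unchanged. Small differences changed sign. The knockdown difference of ERBB4 was -0.0032 after quantile normalization again. With each array left out, ERBB4 ranged from -0.029 to 0.11 for IL-13 and from -0.061 to 0.080 for the knockdown, ERBB2 from -0.049 to 0.028, BTC from -0.10 to 0.014 and AREG (feature 8095736) from -0.082 to 0.0020 for IL-13, and EGFR from -0.052 to 0.11, TGFA from -0.046 to 0.080 and EGF from -0.20 to 0.020 for the knockdown. The cause of these changes was not tested. The number of family features above the negative controls on all 8 arrays was 3 at their 95th percentile, 0 at the 99th and 9 at their median, a threshold chosen after seeing the data.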
